A study of Mus musculus with 9 samples.

Results

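Ly6 surface antigens are small proteins of the Ly6/uPAR family, each built on a cysteine-rich fold and held in the cell membrane by a glycosylphosphatidylinositol (GPI) anchor. Mouse immunologists use them as surface markers: Ly6a (Sca-1) marks stem and progenitor cells, endothelium and activated lymphocytes, Ly6c marks monocytes, some T cells and endothelium, and Ly6d marks B lineage cells. Several are known to be induced by interferons, the antiviral cytokines that signal through JAK and STAT proteins. Here 6 genes were followed, Ly6a, Ly6c1, Ly6c2, Ly6d, Ly6e and Ly6i, chosen by symbol among the 55359 genes of the deposited count table. All 6 had an identifier, and all 6 passed the filter on low counts that left 17123 genes for testing.

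The libraries came from the omentum, a fatty fold of the abdominal lining, of 9 C57BL/6 mice aged 7 to 10 weeks. Every mouse had received 500000 B16-OVA cells, a melanoma line that makes chicken ovalbumin, into the peritoneal cavity. On day 6 the IP group (libraries IP 2, IP 3 and IP 4) received ovalbumin-specific OT-I T cells that had been electroporated with IL-12 mRNA, by the intraperitoneal route. The IV group (IV 1, IV 2 and IV 4) received the same kind of cells by the intravenous route, and the PBS group (PBS 1, PBS 2 and PBS 3) received saline. Omenta were taken 18 h later. A group given T cells that lack the IL-12 mRNA is not among the 9 libraries, so the T cells and their cytokine cannot be told apart, and the titles do not give the route of the saline.

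Library totals ran between 7379798 counts (IV 2) and 44626843 counts (PBS 3). All 8 genes of the adipocyte list and all 7 of the mesothelial list were detected in every library, as were the 7 melanoma genes, whose summed level was 13441 to 15141 CPM (counts per 1e+06 counts) in IP, 18041 to 23385 in IV and 25236 to 28131 in PBS omenta. Transcripts of pancreatic acinar cells took 1.99% of counts in IP 4, 2.71% in IV 1 and 0.525% in IV 2, and at most 0.0271% in the other libraries. CPM here are scaled by the trimmed mean of M values (TMM). Tests are edgeR quasi-likelihood tests adjusted over all genes tested, log2 fold changes are first group minus second with a standard error (SE), and means are given with SD over 3 libraries. In whole tissue, more cells of a type and more RNA per cell cannot be told apart.

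The 6 genes lie on chromosome 15 and differ in how closely they are related. The coding sequences of Ly6c1 and Ly6c2, which encode the near-identical proteins recognised together as Ly6C, were 97.7% identical, with 9 of 396 bases different. Those of Ly6a and Ly6i were 86.4% identical over 405 bases, and Ly6d and Ly6e were the most distant members, at 44.6% to 50.0% identity to each of the others. The first 120 coding bases (Ensembl transcripts of GENCODE M21) are shown because they hold 6 of the 9 differences between Ly6c1 and Ly6c2. Capitals mark the bases that differ.
Ly6c1: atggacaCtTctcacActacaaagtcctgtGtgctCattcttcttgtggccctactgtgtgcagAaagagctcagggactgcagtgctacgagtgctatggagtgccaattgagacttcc
Ly6c2: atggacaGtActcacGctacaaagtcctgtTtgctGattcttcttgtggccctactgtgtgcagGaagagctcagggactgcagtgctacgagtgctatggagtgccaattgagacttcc

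The same stretch is shown for Ly6a and Ly6i, which also differ at 6 positions there, in capitals.
Ly6a: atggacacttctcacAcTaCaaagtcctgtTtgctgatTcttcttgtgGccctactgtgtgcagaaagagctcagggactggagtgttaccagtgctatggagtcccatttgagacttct
Ly6i: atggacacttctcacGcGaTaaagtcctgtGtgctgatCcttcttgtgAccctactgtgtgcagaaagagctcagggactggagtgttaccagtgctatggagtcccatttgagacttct

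This relatedness bears on the counts, since the reads were 51 bases from each end. Of the 51-base windows of the main transcript, 36.0% (286 of 794) in Ly6c1 and 32.3% (249 of 772) in Ly6c2 also occurred in another gene, and 247 of them were common to the pair. The share was 7.67% in Ly6a and 4.61% in Ly6i, and no window of Ly6d or Ly6e occurred elsewhere. The sources used here do not say how reads that match more than 1 gene were counted, so the split between Ly6c1 and Ly6c2 is uncertain, and fold changes of the pair summed are given beside the single ones.

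**Figure D1:**
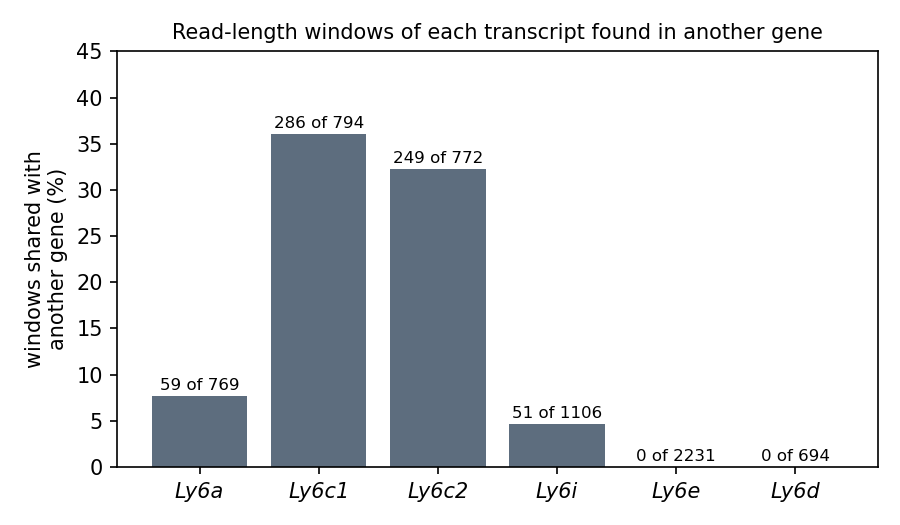
Share of the 51-base windows of each gene's main transcript that also occur in a transcript of another gene (percent, vertical axis), with the numbers of windows above the bars. Ly6c1 and Ly6c2 stand at 36.0% and 32.3%, Ly6a and Ly6i under 10%, and Ly6d and Ly6e at 0.

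Both routes were followed by higher levels of most of these genes. Against PBS, 5 of the 6 members rose in IP omenta (Ly6a, Ly6c1, Ly6c2, Ly6e and Ly6i), where 32.9% of all genes tested were called, 18.7% as higher. All 6 rose in IV omenta, where 16.1% of genes were called, 10.4% as higher. The same 5 members in IP and all 6 in IV had every treated library above every PBS library, as had 28.4% of all genes for IP and 16.5% for IV. The median log2 fold change over all genes was 0.02 for IP and 0.04 for IV. Summed over the 6 genes, the share of all counts was 0.235%, 0.236% and 0.249% for IP 2, IP 3 and IP 4 and 0.175%, 0.236% and 0.162% for IV 1, IV 2 and IV 4, against 0.0218%, 0.0424% and 0.0620% for PBS 1, PBS 2 and PBS 3. The IP and IV libraries overlapped in this share, and all of them were above the PBS libraries. PBS 1 was the lowest PBS library for each of the 6 genes.

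**Figure D2:**
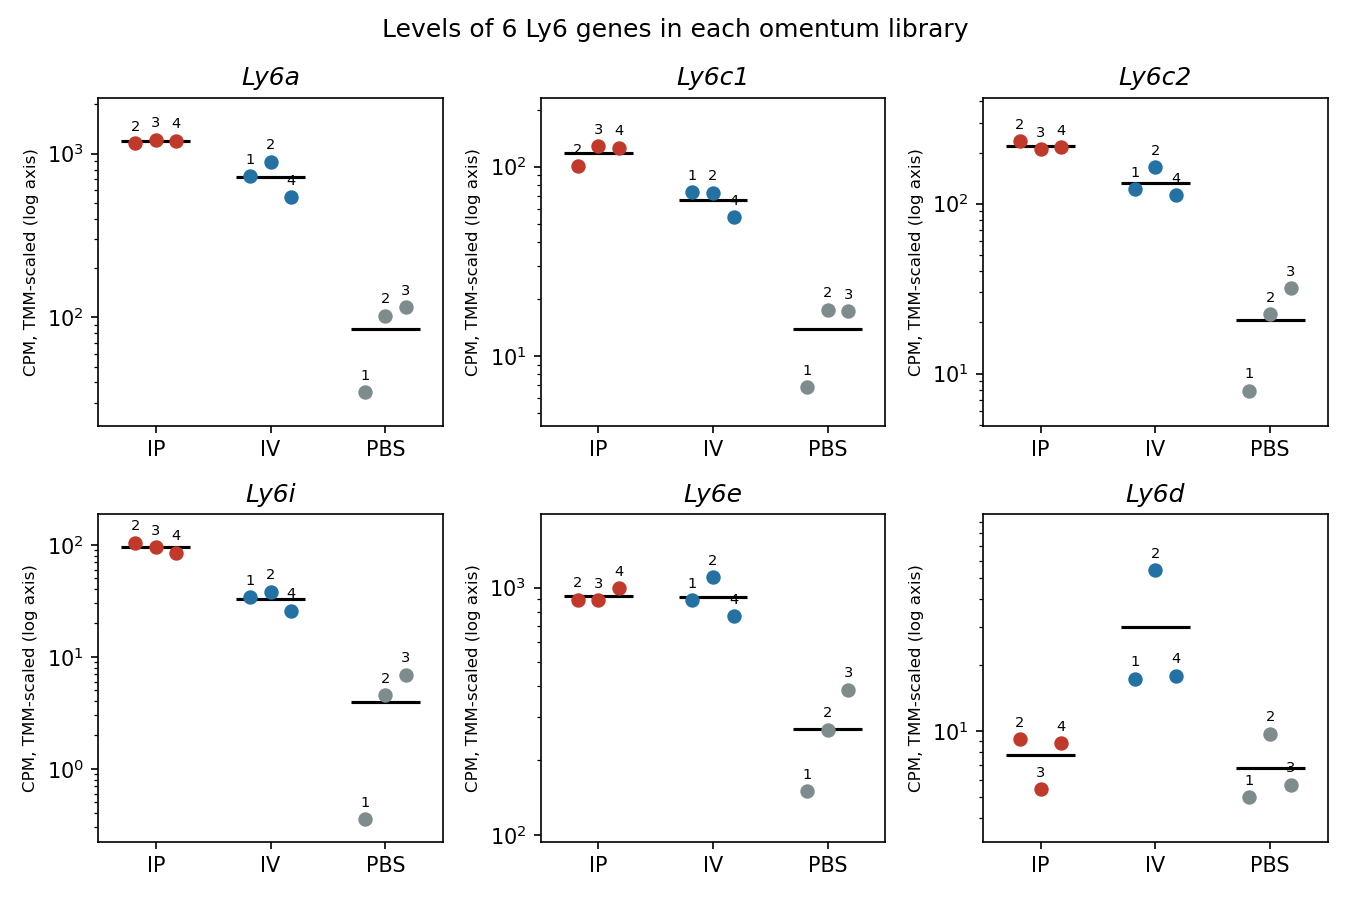
TMM-scaled CPM (log axis) of each of the 6 genes in every library, with IP, IV and PBS from left to right, the mouse number above each point and the group mean as a line. Ly6a, Ly6c1, Ly6c2, Ly6i and Ly6e lie higher in every IP and IV library than in any PBS library, and Ly6d does so in the IV libraries but not in the IP libraries.

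Ly6a, the Sca-1 antigen, was the member with the most counts in IP omenta. Its level was 1158, 1216 and 1198 CPM in IP 2, IP 3 and IP 4 and 729, 892 and 541 CPM in IV 1, IV 2 and IV 4, against 34.8, 102 and 115 CPM in PBS 1, PBS 2 and PBS 3. The 3 IP libraries lay within 1.05-fold of each other, and no treated library overlapped the PBS libraries. Ly6a rose 14.1-fold in IP against PBS (log2 fold change 3.82 ± 0.40 SE, edgeR adjusted p = 6.48e-05) and 8.56-fold in IV against PBS (3.10 ± 0.38, edgeR adjusted p = 0.0019). Of all genes tested, 1.5% had a larger log2 fold change in the IP comparison and 1.27% in the IV comparison.

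Ly6c2, the Ly6C gene known from inflammatory monocytes, had 233, 209 and 215 CPM in IP 2, IP 3 and IP 4 and 121, 164 and 112 CPM in IV 1, IV 2 and IV 4, against 7.89, 22.4 and 31.7 CPM in PBS 1, PBS 2 and PBS 3. Ly6c1, the Ly6C gene known from endothelium, had 100.4, 128 and 126 CPM in IP, and 73.2, 73.0 and 54.0 CPM in IV, against 6.85, 17.6 and 17.2 CPM in PBS omenta. Every treated library of both genes was above every PBS library, and every IP library above every IV library. Ly6c2 rose by a log2 fold change of 3.40 ± 0.41 in IP (edgeR adjusted p = 0.000139) and 2.68 ± 0.39 in IV (edgeR adjusted p = 0.00293). Ly6c1 rose by 3.09 ± 0.32 in IP (edgeR adjusted p = 6.02e-05) and 2.27 ± 0.31 in IV (edgeR adjusted p = 0.00225). With the counts of the pair summed, a setting added after the data were seen, the log2 fold changes were 3.29 and 2.53.

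The balance between the Ly6C genes was not shown to differ between the groups. The log2 ratio of Ly6c2 to Ly6c1 counts was 1.21, 0.71 and 0.77 in IP 2, IP 3 and IP 4 and 0.73, 1.17 and 1.05 in IV 1, IV 2 and IV 4, against 0.20, 0.35 and 0.89 in PBS 1, PBS 2 and PBS 3. The mean difference was 0.42 for IP minus PBS (two-sided exact permutation p = 0.3) and 0.50 for IV minus PBS (exact p = 0.2), where the smallest p that 3 against 3 libraries allow is 0.1. Ly6c2 had more counts than Ly6c1 in all 9 libraries.

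The region upstream of both Ly6C genes is shown, since the pair moved together. The promoter table (RefSeq, GRCm38.p6) held 2 of the 6 members. The 250 bases before the start of Ly6c1 lie at chr15:75048838-75049087 and those of Ly6c2 at chr15:75111972-75112221, both on the minus strand. In alignment they were 57.7% identical, and the capitals mark the longest run they share, of 20 bases, which begins 40 bases before the start in Ly6c1 and 65 bases before it in Ly6c2.
Ly6c1: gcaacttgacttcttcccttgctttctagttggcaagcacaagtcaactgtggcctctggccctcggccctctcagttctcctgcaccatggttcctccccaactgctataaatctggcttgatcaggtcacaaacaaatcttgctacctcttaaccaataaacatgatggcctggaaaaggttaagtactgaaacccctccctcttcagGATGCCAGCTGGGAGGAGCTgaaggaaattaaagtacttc
Ly6c2: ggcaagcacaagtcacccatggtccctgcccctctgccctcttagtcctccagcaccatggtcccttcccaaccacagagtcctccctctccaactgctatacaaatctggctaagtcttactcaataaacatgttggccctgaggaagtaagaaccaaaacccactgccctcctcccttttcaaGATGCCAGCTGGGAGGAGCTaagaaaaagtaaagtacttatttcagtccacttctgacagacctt

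A search of both strands found neither GAAANNGAAA, the core letters of the interferon-stimulated response element, nor TTCNNNGAA, the letters of a gamma-activated site, in either window. Among 32851 windows of the same length, 2.98% held the first and 7.02% the second.

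Ly6i, a close relative of Ly6a, was the least abundant member in PBS omenta and had the widest spread there. It was at 104, 95.4 and 85.3 CPM in IP 2, IP 3 and IP 4 and 33.9, 38.2 and 25.8 CPM in IV 1, IV 2 and IV 4, against 0.355, 4.53 and 6.93 CPM in PBS 1, PBS 2 and PBS 3. The PBS values rest on 13, 118 and 341 counts, and the highest of them was 19.5 times the lowest. Ly6i rose by a log2 fold change of 4.58 ± 0.75 in IP (edgeR adjusted p = 0.00202), the largest among the 6 genes, and 3.03 ± 0.71 in IV (edgeR adjusted p = 0.0249). Leaving out PBS 3 moved these log2 fold changes to 5.34 and 3.79. Leaving out PBS 1, the lowest PBS library, moved them to 4.03 ± 0.26 and 2.48 ± 0.24. The IV call was lost without PBS 2, IP 3, IV 1 or IV 2 (edgeR adjusted p = 0.0928, 0.0505, 0.0637 and 0.0672), with the log2 fold change between 2.91 and 3.05 in each.

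Ly6e, an interferon-induced antigen known in mice and humans for restricting coronavirus entry, was the member with the highest PBS levels. It was at 893, 888 and 994 CPM in IP 2, IP 3 and IP 4 and 890.2, 1099 and 767 CPM in IV 1, IV 2 and IV 4, against 149.9, 267 and 386 CPM in PBS 1, PBS 2 and PBS 3. The IP and IV libraries overlapped, and all of them were above the PBS libraries. Ly6e rose by 1.79 ± 0.29 in IP (edgeR adjusted p = 0.000846) and 1.78 ± 0.29 in IV (edgeR adjusted p = 0.00387), 3.46-fold and 3.44-fold. These were the smallest of the rises in either comparison.

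Ly6d departed from the other 5 members. This antigen, known from B lineage cells and from keratinocytes, was at 9.19, 5.42 and 8.80 CPM in IP 2, IP 3 and IP 4 and 17.3, 54.3 and 17.9 CPM in IV 1, IV 2 and IV 4, against 5.0, 9.75 and 5.69 CPM in PBS 1, PBS 2 and PBS 3. The IP and PBS libraries overlapped, and the IV libraries lay above both. The log2 fold change was 0.21 ± 0.44 in IP (edgeR adjusted p = 0.761) and 2.11 ± 0.45 in IV (edgeR adjusted p = 0.0128), where it rose 4.32-fold. IV 2 had about 3 times the level of the other IV libraries, and without it the IV log2 fold change was 1.38, still past the threshold. The IV call was lost without PBS 1 (edgeR adjusted p = 0.0615).

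**Figure D3:**
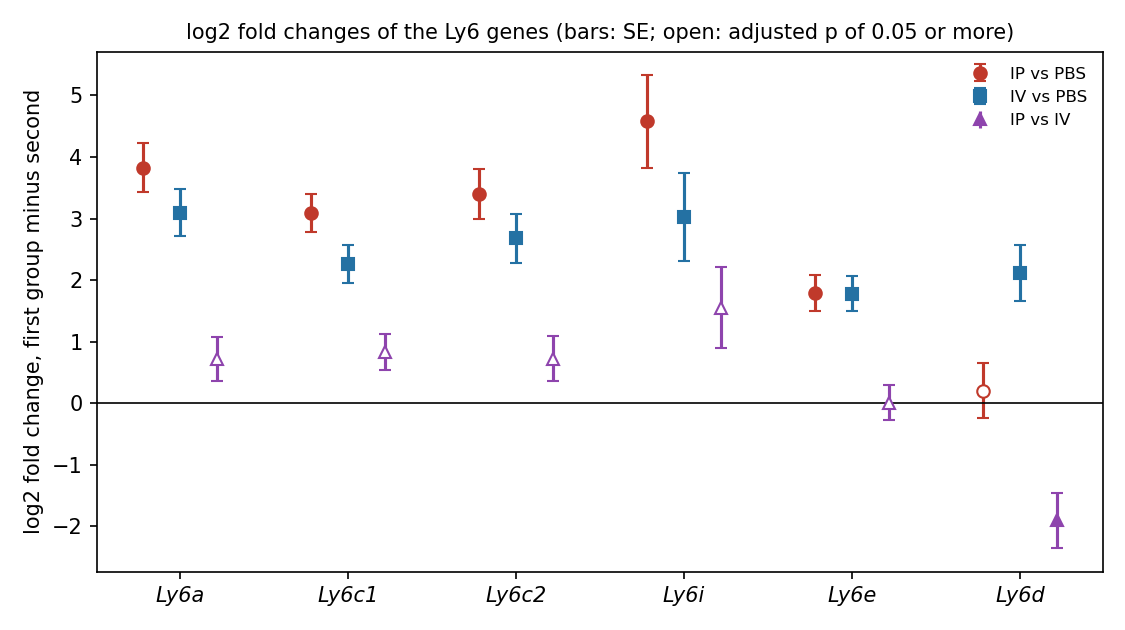
Log2 fold changes (first group minus second, vertical axis) of the 6 genes for IP against PBS, IV against PBS and IP against IV, with bars of 1 SE and open symbols where the edgeR adjusted p was 0.05 or more. Ly6i had the largest value for IP against PBS (4.58), and Ly6d was the member with a called difference between the routes (-1.90).

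Between the routes, 1 member passed the test. Ly6d was lower in IP than in IV omenta, with a log2 fold change of -1.90 ± 0.45 (edgeR adjusted p = 0.0234), where 10.4% of all genes were called, 5.93% as higher and 4.47% as lower, and 13.5% had every IP library below every IV library. Its call was lost without IP 2, IP 3, IP 4 or IV 2 (edgeR adjusted p = 0.0785, 0.103, 0.0665 and 0.0570). The log2 fold change was then -2.03, -1.70 and -1.99 without each of the IP libraries, and -1.17 without IV 2. For Ly6a, Ly6c1, Ly6c2 and Ly6i each IP library was above each IV library, as was so for 17.9% of all genes. Their log2 fold changes of IP against IV were 0.72 ± 0.36, 0.83 ± 0.29, 0.73 ± 0.37 and 1.55 ± 0.66, with edgeR adjusted p of 0.236, 0.104, 0.257 and 0.183. For Ly6e the value was 0.01 ± 0.28 (edgeR adjusted p = 0.988), and its sign changed with the setting.

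The calls of these 4 genes changed with the libraries in the fit. With the IP and IV libraries alone in it, Ly6a (0.72 ± 0.17, edgeR adjusted p = 0.0281), Ly6c1 (0.81 ± 0.16, 0.0120), Ly6c2 (0.72 ± 0.15, 0.0188) and Ly6i (1.54 ± 0.16, 0.000769) passed beside Ly6d, so that 5 members were called. Leaving out PBS 1 alone also gave 5 calls. The log2 fold changes were nearly the same and the SE smaller. In the fit of all 9 libraries the 3 groups share 1 estimate of spread per gene, which also carries the PBS spread. How far this accounts for the SE was not tested. For the Ly6c1 and Ly6c2 counts summed, IP against IV was 0.76 ± 0.34 (edgeR adjusted p = 0.185) with all 9 libraries.

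Levels of the members were compared per kilobase (kb) of the main transcript. In IP omenta the order was Ly6a (1454 ± 36.7 CPM per kb, SD, n = 3), Ly6e (406 ± 26.1), Ly6c2 (266 ± 14.9), Ly6c1 (139.9 ± 18.2), Ly6i (82.1 ± 8.16) and Ly6d (10.5 ± 2.78). In IV omenta it was Ly6a (879.9 ± 214), Ly6e (403 ± 73.6), Ly6c2 (161 ± 33.7), Ly6c1 (79.1 ± 13.1), Ly6d (40.1 ± 28.5) and Ly6i (28.2 ± 5.44). In PBS omenta Ly6e (117 ± 51.7) and Ly6a (103 ± 52.8) stood within each other's spread, followed by Ly6c2 (25.1 ± 14.6) and Ly6c1 (16.4 ± 7.20), also within their spread, then Ly6d (9.16 ± 3.45) and Ly6i (3.41 ± 2.88). Ly6d and Ly6i did not differ beyond their spread in IV. Over the union of all exons, which is longer for Ly6c1 and Ly6c2, Ly6i (82.1) stood level with Ly6c2 (79.9) and above Ly6c1 (70.4) in IP omenta, Ly6d (40.1) with Ly6c1 (39.8) in IV omenta, and Ly6d (9.16) above Ly6c1 (8.27) and Ly6c2 (7.54) in PBS omenta, where these 3 were within their spread. As a share of the members' counts, Ly6a took 45.6% to 47.8% in IP and 35.7% to 39.1% in IV, against 17.0% to 24.2% in PBS libraries.

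The genes of interferon signalling and response, which were listed because several members are known interferon targets, were also higher. Of 14 genes of the interferon-gamma pathway, 11 rose in IP and 10 in IV against PBS and none fell, with a median log2 fold change of 1.98 and 1.15. The shares of all genes tested that rose were 18.7% and 10.4%. Socs3, a feedback inhibitor of cytokine signalling, was at 188 ± 10.2 CPM in IP and 52.7 ± 7.42 CPM in IV against 28.0 ± 6.16 CPM in PBS omenta (SD, n = 3 each). All 20 genes of the type I response list rose in both comparisons, with medians of 2.92 and 1.77. Usp18, a protease that removes ISG15 and damps interferon signalling and is on both lists, rose by 2.7 ± 0.21 in IP and 1.38 ± 0.20 in IV (edgeR adjusted p = 2.45e-05 and 0.0028). Mx2, on the type I list, rose by 3.07 ± 0.24 and 1.35 ± 0.23 (edgeR adjusted p = 2.45e-05 and 0.00474). Between the routes, 4 of the 14 and 8 of the 20 were higher in IP and none was lower, against 5.93% of all genes called higher.

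The enzymes that make the GPI anchor were listed as the machinery all 6 proteins depend on, and few of them passed the test. Of 29 genes found and tested out of 32 listed, 2 rose and 1 fell in IP and 1 rose in IV, and the medians were -0.03 and 0.00. The shares called were 10.3% in IP and 3.45% in IV, beside 32.9% and 16.1% of all genes. Pigc, Piga and Pigq are subunits of the transferase that starts anchor synthesis. Pigc rose by 0.74 ± 0.14 in IP and 0.51 ± 0.14 in IV (edgeR adjusted p = 0.00182 and 0.0291). Piga rose by 0.92 ± 0.19 in IP (edgeR adjusted p = 0.00419), with 0.13 ± 0.20 in IV (0.689), while Pigq, named after its value was seen as the 1 gene that fell, was at -0.60 ± 0.15 in IP (0.00959).

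Of 33 other genes that were listed as Ly6 relatives by symbol or by fold, 31 had an identifier and 15 were tested, while 7 were at 0 in every library. In IP, 6 of the 15 rose and 2 fell, and in IV 4 rose. The genes that rose include Slurp1, Ly6k and Ly6g, with at most 1, 9 and 4 counts in a PBS library, which could pass the filter on low counts only through the treated libraries, so that these counts say nothing of the list's direction. Plaur, the urokinase receptor, had 114, 90.0 and 79.9 CPM in IP 2, IP 3 and IP 4 and 31.7, 22 and 14.7 CPM in IV 1, IV 2 and IV 4, against 13.9, 14.5 and 13.6 CPM in PBS 1, PBS 2 and PBS 3. It rose by 2.76 ± 0.25 in IP (edgeR adjusted p = 3.88e-05), with 0.70 ± 0.24 in IV (0.0752), and was higher in IP than in IV by 2.05 ± 0.25 (0.000968).

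Lynx1, which binds nicotinic receptors, rose by 0.84 ± 0.24 in IP and 1.01 ± 0.24 in IV (edgeR adjusted p = 0.0197 and 0.0191). Ly6g5c rose by 1.27 ± 0.31 in IP (edgeR adjusted p = 0.0101). Gpihbp1, which carries lipoprotein lipase across capillary endothelium, fell by 1.16 in IP on the log2 scale (SE 0.38, edgeR adjusted p = 0.0373), and Cd59b, a complement inhibitor, fell by 1.08 (SE 0.38, 0.0492). Cd59a, the other copy of that inhibitor, had a log2 fold change of -0.44 ± 0.16 in IP (0.0596), and Ly6g6e and Ly6g6f stayed under 1 CPM. Ly6g, the neutrophil antigen that shares the Gr-1 epitope with Ly6C, is named after its values were seen. Its counts were 8, 11 and 19 for IP, 4, 6 and 7 for IV and 2, 0 and 4 for PBS libraries. The log2 fold changes were 3.05 ± 0.87 in IP and 2.31 ± 0.95 in IV. As Ly6g could pass the filter on low counts only through the treated libraries, no result is drawn from its direction.

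In the order of the older GENCODE M21 annotation, 50 genes run between Psca and Gpihbp1 with the 6 members among them, and 16 of these were tested. I830127L07Rik, a transcribed pseudogene next to Ly6c2 in that order, is named after its values were seen. Its counts were 894, 651 and 647 for IP and 423, 132 and 293 for IV, against 19, 29 and 49 in PBS libraries, and rose by 4.91 ± 0.41 in IP and 3.89 ± 0.40 in IV (edgeR adjusted p = 2.7e-05 and 0.00182). It shares 19 windows of 51 bases with Ly6a and 17 with Ly6i.

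Markers of the cells that are known to carry these antigens moved in part with them. Against PBS, 18.7% of all genes tested rose in IP and 10.4% in IV, and 4.47% were lower in IP than in IV. For Ly6d, 11 of 13 B cell genes rose in IV against PBS (median 1.81), none rose and 2 fell in IP (median -0.33), and 11 were lower in IP than in IV. Their summed level was 87.9, 57.2 and 85.8 CPM in IP 2, IP 3 and IP 4 and 167, 604 and 261 CPM in IV 1, IV 2 and IV 4, against 77.2, 90.9 and 95.5 CPM in PBS 1, PBS 2 and PBS 3. Ly6d was 9.47% to 10.5% of that sum in IP and 6.87% to 10.3% in IV, against 5.96% to 10.7% in PBS libraries, so that the groups overlapped in this ratio. Fcer2a, the B cell antigen CD23, was at 0.291 ± 0.111 CPM in IP and 8.06 ± 5.39 CPM in IV, against 1.59 ± 0.122 CPM in PBS omenta, and Cr2, a complement receptor of B cells, was at 0.643 ± 0.306 and 6.63 ± 3.91 CPM, against 1.83 ± 0.401 CPM. None of the 13 genes was at 0 in any library, and the part of B cells in the Ly6d result was not tested. Of 11 epithelial genes, listed since keratinocytes also carry Ly6d, 6 were tested and none was called, with medians of 1.84 in IP and 1.4 in IV. Trp63, a transcription factor of basal epithelium, was at 0.922, 1.02 and 1.21 CPM in IP 2, IP 3 and IP 4. It was at 0.218, 2.13 and 0.662 CPM in IV 1, IV 2 and IV 4, with 16 counts in IV 2. In PBS 1, PBS 2 and PBS 3 it was at 0.109, 0.269 and 0.386 CPM, from 4, 7 and 19 counts. Trp63 could pass the filter on low counts only through the treated libraries, so no result is drawn from its direction. The medians above include it. Epcam, an epithelial adhesion molecule, had a log2 fold change of 1.59 ± 0.64 in IV (edgeR adjusted p = 0.118), with every IV library above every PBS library, and the part of epithelial cells was not tested either. It was at 0.823, 0.974 and 4.42 CPM in IP 2, IP 3 and IP 4. The epithelial sum was 55.1, 54.1 and 223 CPM in these libraries. It was 134, 81.9 and 50.9 CPM in IV 1, IV 2 and IV 4, and 44.2 to 59.1 CPM in PBS libraries. IP 4 and IV 1 also held the most acinar transcripts, 1.99% and 2.71% of counts. Of 9 genes of plasmacytoid dendritic cells, another cell type known to carry Ly6d, Bst2, Irf8, Pacsin1 and Runx2 rose in both comparisons, and Bst2 and Irf8 are also on the interferon lists. Bst2, an antiviral membrane protein, made up most of their summed level, at 1104 ± 68.4 CPM in IP and 989 ± 172 CPM in IV, against 431 ± 199 CPM in PBS omenta. Ccr9, a homing receptor of these cells named after its value was seen, had a log2 fold change of -0.29 ± 0.34 in IP and 0.77 ± 0.34 in IV (edgeR adjusted p = 0.555 and 0.15). In each comparison with PBS, 5 of the 9 genes were not called. Between the routes, 1 of the 9 was higher in IP and 1 was lower. The part of plasmacytoid dendritic cells in the Ly6d result was not tested.

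**Figure D4:**
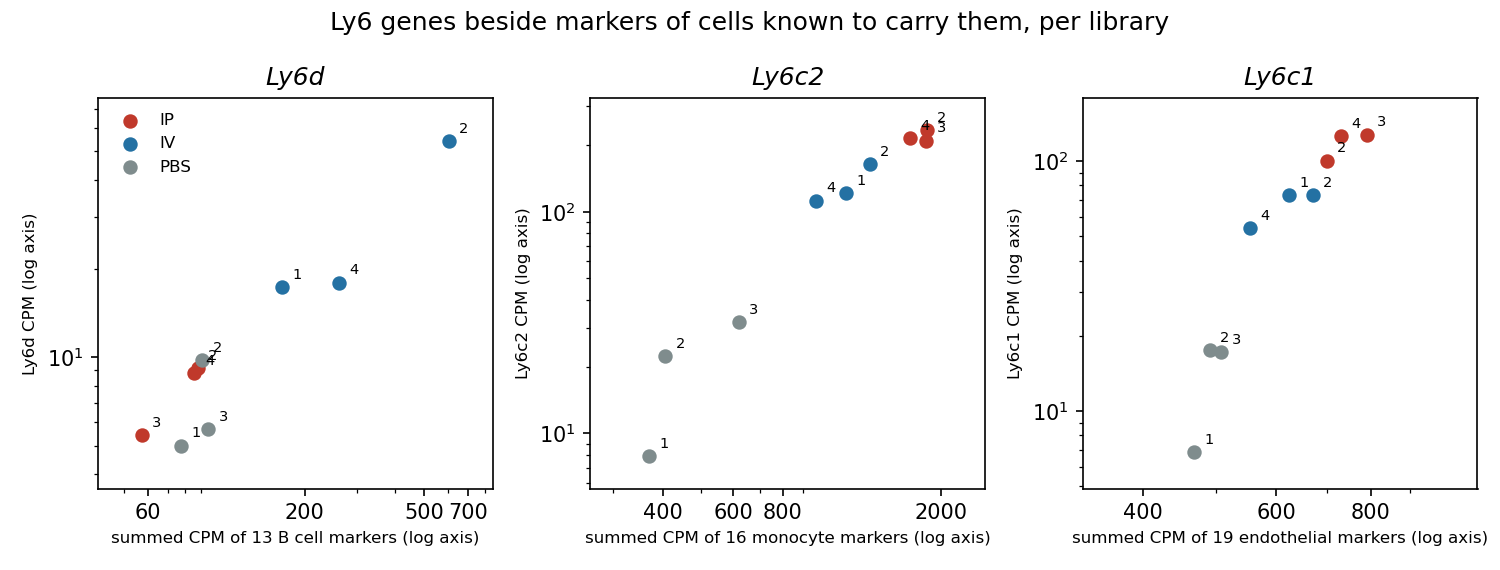
TMM-scaled CPM (log axes) of Ly6d, Ly6c2 and Ly6c1 against the summed CPM of 13 B cell, 16 monocyte and 19 endothelial genes, 1 point per library with its mouse number, coloured by group. In IV 2 both Ly6d (54.3 CPM) and the B cell sum (604 CPM) are highest, and the Ly6c1 values spread more widely than the endothelial sums.

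For Ly6c2, 12 of 16 monocyte genes rose and 2 fell in IP (median 1.59), and 7 rose in IV (median 0.97). Over all genes tested, 18.7% rose in IP and 10.4% in IV. Vcan, the proteoglycan versican, rose by 2.00 ± 0.18 in IP (edgeR adjusted p = 3.53e-05), with 0.39 ± 0.18 in IV (0.161). Fcgr1, the Fc receptor CD64, rose by 2.85 ± 0.35 in IP and 1.77 ± 0.34 in IV (0.000175 and 0.00824). Cx3cr1, 1 of the 2 that fell in IP, is named after its values were seen. Its log2 fold change was -3.25 ± 0.56 in IP and -1.06 ± 0.50 in IV (edgeR adjusted p = 0.00123 and 0.175). The monocyte sum was 1666 to 1839 CPM in IP and 967 to 1323 CPM in IV, against 369 to 621 CPM in PBS libraries. Ly6c2 was 11.4% to 12.9% of it in IP and 10.5% to 12.4% in IV, against 2.14% to 5.53% in PBS libraries, and so was higher relative to these genes in every treated library. Ly6i was 5.12% to 5.66% of the same sum in IP and 2.67% to 2.94% in IV, against 0.0963% to 1.12% in PBS libraries. The part of monocyte number in either result was not tested.

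For Ly6c1, 8 of 19 endothelial genes rose and 2 fell in IP (median 0.55) and 2 rose in IV (median 0.19). The IV share, 10.5%, was near the 10.4% of all genes called higher in IV, while 18.7% of all genes were called higher in IP. Flt1, a receptor for vascular endothelial growth factor, rose by 2.45 ± 0.14 in IP and 0.63 ± 0.13 in IV (edgeR adjusted p = 9.55e-06 and 0.0124), and Eng, endoglin, rose by 0.66 ± 0.14 in IP (0.00496), with 0.38 ± 0.14 in IV (0.0930). The endothelial sum was 699 to 790 CPM in IP and 554 to 670 CPM in IV, against 467 to 508 CPM in PBS libraries. Ly6c1 was 14.4% to 17.3% of that sum in IP and 9.75% to 11.7% in IV, against 1.47% to 3.59% in PBS libraries. Ly6a stood at 154% to 166% of it in IP and 97.7% to 133% in IV, against 7.45% to 22.7% in PBS libraries.

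Lists of stromal progenitors, neutrophils and T cells, which can also carry Ly6a or Ly6C, are given for the same reason. Beside these counts, 18.7% of all genes tested rose in IP and 10.4% in IV. Of 14 stromal genes 4 rose and 1 fell in IP and 3 rose in IV, with medians of 0.38 and 0.23. Of 14 neutrophil genes 11 rose in IP and 2 in IV, with medians of 3.21 and 1.77. Of 14 T cell genes 10 rose in IP and 9 in IV, with medians of 1.65 and 1.53. Cd3d, a chain of the T cell receptor complex, was at 33.1 ± 2.89 CPM in IP and 28.8 ± 12.2 CPM in IV, against 8.55 ± 3.69 CPM in PBS omenta. Ccr7, a homing receptor, was at 23.5 ± 4.28 and 22.3 ± 11.4 CPM, against 6.16 ± 2.20 CPM. Cd4, named after its values were seen, was at 4.46 ± 0.731 and 18.5 ± 10.0 CPM, against 8.49 ± 2.39 CPM. It was not called against PBS in IP or IV (edgeR adjusted p = 0.109 and 0.0865), and was lower in IP than in IV (0.0121). The summed T cell level was 326 to 376 CPM in IP and 167 to 439 CPM in IV, against 70.2 to 161 CPM in PBS libraries. The share of the transferred T cells in these levels, and in the Ly6a and Ly6c2 counts, was not tested.

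The genes whose pattern over the 9 libraries was most like each member's were found by the root mean square (RMS) difference of centred log2 CPM. The search covered 11013 other genes with a mean of at least 5 CPM. Genes without a symbol, provisional names such as Gm or Rik, pseudogenes, and immunoglobulin and T cell receptor segments were left out. I830127L07Rik was therefore not a candidate. For Ly6a the nearest candidates were AW112010 (0.216), Ly6c2 (0.217), Plac8 (0.242) and H2-T23 (0.275). Ly6c2 was nearest to H2-T23 (0.110), Plac8 (0.207), Sp110 (0.212) and Irf1 (0.214), and Ly6c1 to Phf11b (0.176), Ifit3 (0.181), Phf11d (0.188) and Slfn1 (0.222). Ly6i was nearest to Cxcl9 (0.237) and Ubd (0.291), and the next, Apol10b and Olfr56, were at 0.474 and 0.476. Ly6e was nearest to Il2rg (0.160), H2-Q7 (0.182), Pak1 (0.187) and Ly86 (0.197). Ly6d was nearest to H2-DMb2 (0.269), Cd79a (0.288) and Cd79b (0.305), of which Cd79a and Cd79b are on the B cell list. Among the members, the RMS difference was smallest between Ly6a and Ly6c2 (0.217) and largest between Ly6d and Ly6i (2.34). These distances are over the same 9 libraries, which differ in group and in depth.

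**Figure D5:**
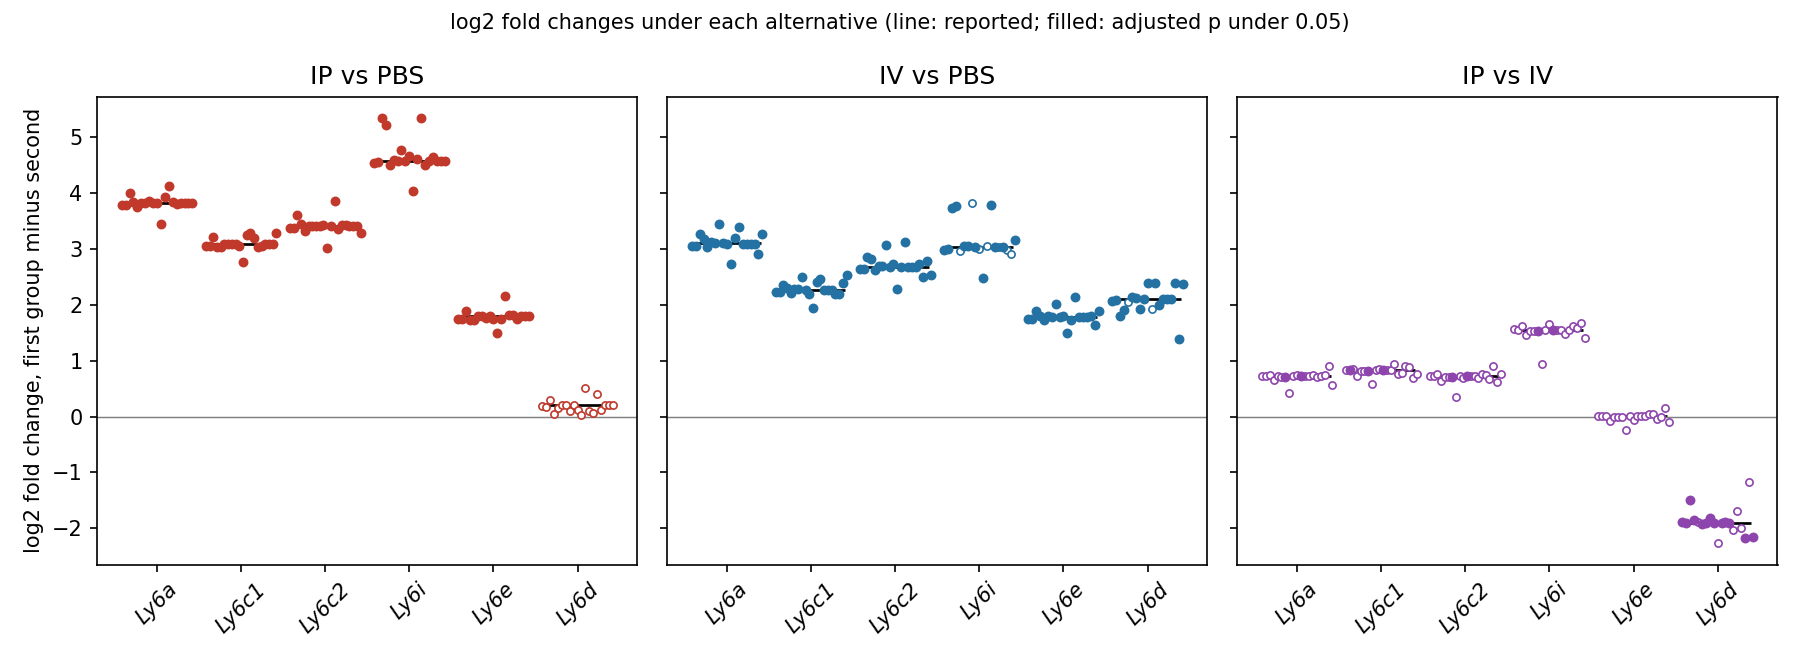
Log2 fold changes (first group minus second, vertical axis) of the 6 genes under each alternative setting, 1 point per setting, filled where the adjusted p was under 0.05, with the reported value as a line. Ly6a, Ly6c1, Ly6c2 and Ly6e are filled throughout in both comparisons with PBS, and between the routes the filled points of Ly6a, Ly6c1, Ly6c2 and Ly6i are few.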

How the data were processed

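RNA of 9 omenta was sequenced as pairs of 51-base reads from directional poly(A) libraries, per the labels. The submitters' processing notes list limma, featureCounts, STAR 2.7.9 and, as the build, mm39, without saying what each was used for. The authors' deposited table of raw counts was used as it stands. A deposited log2 CPM table of 18833 genes, unscaled beyond library totals, served as an alternative input. Symbols came from GENCODE M21 (GRCm38), in which 52083 of the 55359 identifiers were found, and sequences from that annotation and from RefSeq. The sources used here do not give the strand setting of the counting.

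Counts were tested in R 4.3.3 with edgeR 4.0.16: filterByExpr, TMM, 1 robust quasi-likelihood fit over all 9 libraries without covariates, two-sided, with Benjamini-Hochberg adjustment over 17123 genes and a threshold of 0.05. The SE is the absolute log2 fold change over the square root of F. The Ly6c2 to Ly6c1 ratio used counts plus 0.5. Identities are from global alignments (Biopython 1.88). The code was tested on simulated counts. Alternatives used DESeq2 1.42.0, limma 3.58.1, other filters, other sets of libraries and a replicate block. The labels give each mouse a number but do not say that equal numbers are related, and each pair of groups shares 2 numbers. The members and gene lists were chosen with earlier results of these data known. Genes named besides members are up to 8 other listed Ly6 relatives by mean CPM, up to 4 per list by p in IP against PBS, and up to 4 of the nearest patterns to each member. One gene that this rule covers is not reported here. Genes named after their values were seen are marked as such. The edgeR p-values measure the spread between the mice within groups of 3. The 3 groups share 1 estimate of that spread per gene, so tests of IP against IV also carry the PBS spread. Library totals bear on the precision of genes with few counts.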

Additional observations from a re-analysis of the deposited data

Results flagged for a closer look

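The 6 members and the genes named by rule with fold changes or levels from the gene lists were looked at. For 10 of them the effect against PBS differed between the routes, by the edgeR test of IP against IV. Over all genes tested, 10.4% were called there. Most of the list genes were named by p in IP against PBS, which uses the same IP libraries, so no result is drawn from this count. Cx3cr1 and Cd4, named after their values were seen, are not counted. Ly6d had a log2 fold change of -1.90 for IP against IV, and the B cell genes Fcer2a and Cr2 had -4.74 and -3.30. The values above 0 were 2.05 for Plaur, 1.84 for Socs3, 1.83 for Flt1, 1.72 for Mx2, 1.61 for Vcan, 1.32 for Usp18 and 0.78 for Piga. The edgeR adjusted p was 0.0234 for Ly6d and lay between 0.000117 (Flt1) and 0.0301 (Piga) for the other genes. For each of the 10 genes every IP library lay on the same side of every IV library. Over all genes tested, 17.9% had every IP library above every IV library and 13.5% had every IP library below.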

How the results depend on the processing

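Of 348 recomputed values of the 6 genes over the 3 comparisons (19 planned settings and 1 added for Ly6c1 and Ly6c2), 316 kept their direction and side of the threshold, 15 lost and 9 gained a call, and 8 changed sign. The sign changes were all of Ly6e between IP and IV, a value near 0 that was never called: -0.0751 with limma on the deposited log2 CPM, -0.000655 with no low-count filter, -0.0104 with a filter of 1 CPM in 3 libraries, -0.244 with a replicate block, -0.0613 without IP 4 and IV 1, -0.0403 without IP 4, -0.00609 without IV 1 and -0.100 without IV 4. Leaving out each library gave -0.100 to 0.16. For IP against PBS, 5 members were called under all settings. For IV against PBS, 4 were called with no filter, and leaving out each library gave 5 to 6.

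Between IP and IV (1 member called), 2 were called by the DESeq2 Wald test, 5 with only the groups compared, 0 with no filter, 0 without IP 4 and IV 1, and 0 to 5 when each library was left out. Beside Ly6d, DESeq2 called Ly6c1 (adjusted p = 0.0425). The genes called between the routes numbered 1780, and 2765 by DESeq2, 1134 with the replicate block, 903 without IP 4 and IV 1 and 673 (without IP 2) to 2873 (without IV 4) when each library was left out. For IV against PBS the 2753 called genes became 1210 with only the groups compared, 1647 without IP 4 and IV 1, and 980 (without PBS 1) to 4580 (without IV 4). For IP against PBS the 5626 ranged between 3956 and 6569. The causes were not tested.

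The Ly6i call for IV against PBS was also lost with no filter (adjusted p = 0.112), with the replicate block (0.114) and without IP 4 and IV 1 (0.0829), and that of Ly6d with no filter (0.0710). The Ly6d call between the routes was lost with no filter (0.114) and without IP 4 and IV 1 (0.0508). Same-numbered libraries did not deviate together throughout (r between -0.40 and 0.10), and the block changed no other call of the members. With limma on the deposited log2 CPM, where input, test, gene set and scaling all differ, the median of all genes was -0.14 for IP against PBS and -0.11 for IP against IV, and the share of called genes that were higher was 42.6%, against 56.8% in the reported fit, for IP against PBS, 54.6% against 64.8% for IV against PBS and 40.7% against 57.0% for IP against IV. The Ly6c2 to Ly6c1 ratio difference was 0.26 to 0.62 for IP and 0.37 to 0.71 for IV when each library was left out. Depth limits genes with few counts, such as Ly6g. The Ly6i counts were 13 of 34369342 in PBS 1, 118 of 25993996 in PBS 2 and 341 of 44626843 in PBS 3. The part of depth in this spread was not tested.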
